A study of Mus musculus with 10 samples.

Results

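Wee1, Usp2, Nampt and Cdkn1a are genes whose mRNA is known to follow the circadian clock in many tissues, and they were taken by gene name from the 54532 genes in the table of lung mRNA. All 4 were found, 1 entry each. The study asked how increased pulmonary flow (IPF) after birth changes the lung. An aortocaval fistula, an opening between the abdominal aorta and the inferior vena cava that sends more blood back to the right heart and through the lungs, was made in wild-type C57BL/6J mice at postnatal day 7 (P7). Sham mice were anaesthetised and had the same abdominal opening and vessel exposure without the puncture. Whole lungs of 5 IPF and 5 sham mice were collected at P30, and their mRNA was sequenced. The pups stayed with their mothers under alternating light and dark, and the hour of day at which the lungs were taken is not given in the sources used here.

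The circadian clock is a loop of transcription factors present in most cells. ARNTL (BMAL1) pairs with CLOCK or NPAS2 and switches on genes that include their own repressors, the Per, Cry and Nr1d genes, and Dbp, which passes the rhythm on to further genes. Because Arntl mRNA is low when Dbp mRNA is high and the reverse, the pair serves as a reading of the clock's position. Wee1 encodes a kinase that holds back entry into mitosis, Usp2 a ubiquitin-specific protease, Nampt the rate-limiting enzyme of the NAD salvage pathway, and Cdkn1a the cyclin-dependent kinase inhibitor p21, which stops the cell cycle and is best known as a target of p53. Each of them is reported to be under clock control, Wee1, Usp2 and Nampt through ARNTL and Cdkn1a through NR1D1.

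The values are FPKM (fragments per kilobase of gene and of all fragments in the sample), so levels can be compared between genes. The gene positions are those of the mouse build GRCm38. Wee1 (ENSMUSG00000031016) lies on chromosome 7 from 110122046 to 110143286, and Usp2 (ENSMUSG00000032010) on chromosome 9 from 44067021 to 44095627. Nampt (ENSMUSG00000020572) lies on chromosome 12 from 32819545 to 32853349, and Cdkn1a (ENSMUSG00000023067) on chromosome 17 from 29090976 to 29100727. All 4 are on the plus strand, and each shares its position with another annotated gene. The highest level of such a neighbour was 0.621 FPKM at Wee1 (1600010M07Rik), 0.196 at Usp2 (Gm39325), 1.58 at Nampt (Gdap10) and 0.638 at Cdkn1a (AC167363.2). Whether the counting used the strand is not given in the sources used here, so reads from a gene and a neighbour on the opposite strand cannot be told apart. Gdap10 is on the same strand as Nampt, where strand would not separate their reads either.

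RefSeq promoter sequences (GRCm38.p6) matched 3 of the 4 genes by symbol, Usp2, Nampt and Cdkn1a, and not Wee1. The 250 bases before each start were searched on both strands for sequences that clock factors and p53 are known to bind. The windows of Usp2 and of the Cdkn1a start nearest its gene start are shown because Usp2 was lower in IPF lungs and Cdkn1a was the member that was higher. Both are given on the plus strand, and capitals mark the p53 core pair. The Usp2 window is chr9:44084670-44084919, which is inside the Usp2 gene of the table, and the Cdkn1a window is chr17:29090729-29090978.
Usp2: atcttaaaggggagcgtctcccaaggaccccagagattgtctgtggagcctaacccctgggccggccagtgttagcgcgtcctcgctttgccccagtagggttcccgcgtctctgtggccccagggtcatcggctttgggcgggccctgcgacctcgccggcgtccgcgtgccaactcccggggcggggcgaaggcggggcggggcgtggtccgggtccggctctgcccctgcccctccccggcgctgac
Cdkn1a: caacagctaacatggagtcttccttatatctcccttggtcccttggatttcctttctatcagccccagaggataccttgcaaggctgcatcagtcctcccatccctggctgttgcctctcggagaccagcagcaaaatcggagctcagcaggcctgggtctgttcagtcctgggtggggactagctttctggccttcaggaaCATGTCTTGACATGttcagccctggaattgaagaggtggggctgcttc

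The p53 core pair, 2 copies of CATG with 6 bases between them, begins 48 bases before that Cdkn1a start, and 0.49% of all 32851 mouse promoter windows of the same length hold it. It was found in 1 of the 4 windows searched (1 of Usp2, 1 of Nampt and 2 of Cdkn1a). The E-box CACGTG, its variant CACGTT, the D-box TTANGTAA and the ROR elements TAGGTCA and TGGGTCA were in 0 of these 4 windows. Across all promoter windows they occur in 6.02%, 3.85%, 2.06%, 2.23% and 3.24%. No motif is contained in another, and CACGTG and the p53 core pair read the same on both strands. A match is a description of the letters, and its absence says only that these letters are not in this window.

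The depth on genes was 15483046 to 19026843 reads per sample, recovered from the FPKM values. The IPF and sham groups overlapped in depth, with medians of 18264357 and 16386455. No 2 libraries were copies of each other. Sham replicate 1 correlated a little less with the other samples (mean Spearman 0.957) than the other 9 did with theirs (0.963 to 0.968). Lung markers such as Sftpc, Ager and Pecam1 were present in every sample, with 1 of 10 epithelial and endothelial markers passing the test (Cldn5, log2 fold change 0.56, limma adjusted p = 0.0107). The groups also differed in sex-linked mRNA. Xist was 26.8 to 43.2 FPKM in the IPF samples and 0.0301 to 0.0767 in the sham samples, and the Y-linked Ddx3y, Eif2s3y, Kdm5d and Uty were at 0 in all 5 IPF samples. Operation and sex therefore cannot be told apart in any comparison below. The labels do not name litters, so the p-values measure the spread between these samples. In whole lung, fewer cells that express a gene and less mRNA per cell cannot be told apart.

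Wee1 and Usp2 were lower in IPF lungs by more than 2.5-fold, Cdkn1a was higher by 1.44-fold, and Nampt did not pass the test over all 10 samples. In the limma fit over the 20448 genes with a mean of at least 0.1 FPKM, 3 of the 4 genes had an adjusted p under 0.05 (Benjamini-Hochberg), against 5.85% of all genes tested. Of all genes, 2.14% passed in the direction of Wee1 and Usp2 and 3.71% in that of Cdkn1a. With the study's second limit, an absolute log2 fold change above 1, 2 of the 4 remained, against 1.14% of all genes. Both were lower in IPF, where 0.46% of all genes passed, and 0 of the 4 were higher, where 0.68% did. The groups did not overlap for 3 of the 4 genes, against 7.29% of all genes. The 4 genes were chosen with earlier results of these data known, so these counts are a description.

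**Figure D1:**
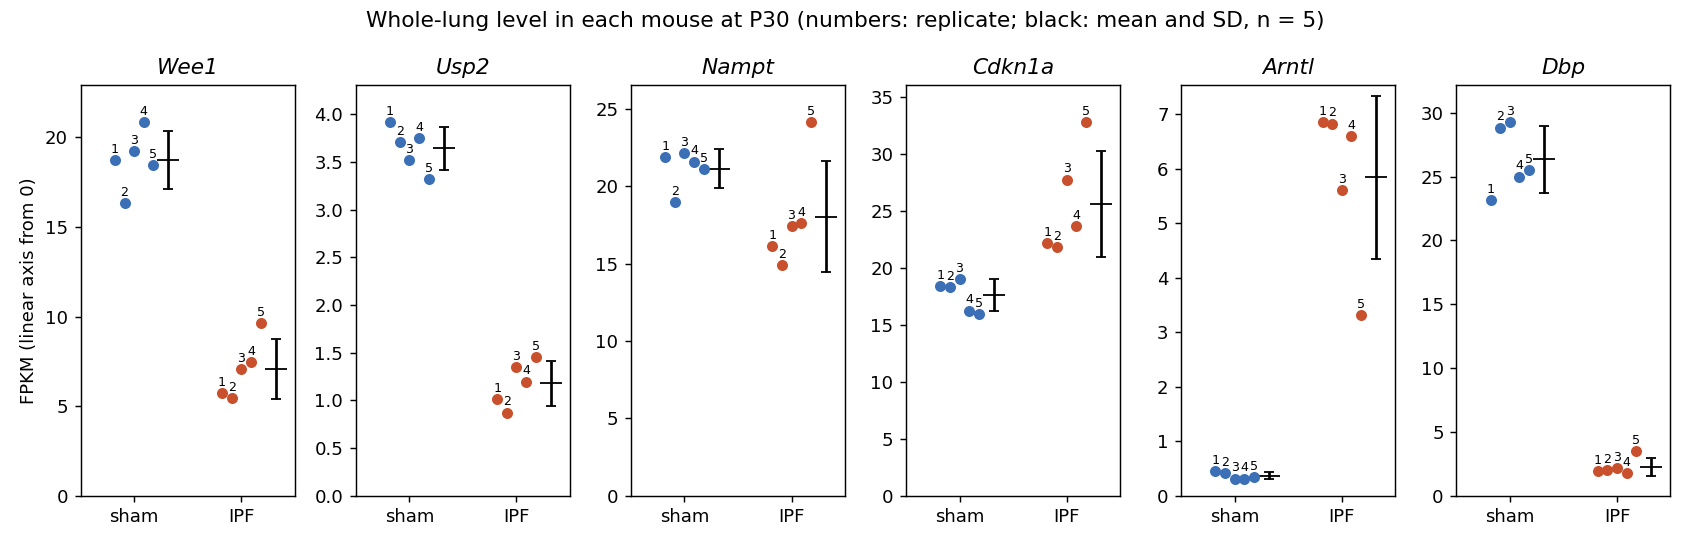
FPKM of Wee1, Usp2, Nampt and Cdkn1a, and of the clock genes Arntl and Dbp, in each IPF and sham sample, with 1 panel per gene on a linear axis from 0. Points are single samples with their replicate number, and black bars mark the group mean and SD (n = 5). The IPF points of Wee1 and Usp2 lie below all sham points and those of Cdkn1a above them, while IPF replicate 5 lies above the sham samples for Nampt.

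Wee1, which restrains mitosis by phosphorylating CDK1, was 5.74, 5.44, 7.05, 7.45 and 9.62 FPKM in IPF replicates 1 to 5. In sham replicates 1 to 5 it was 18.7, 16.3, 19.2, 20.9 and 18.5 FPKM. The groups did not overlap, with all 5 IPF samples below all sham samples, as for 2.77% of all genes. The means were 7.06 ± 1.67 and 18.7 ± 1.62 FPKM (SD, n = 5) and differed by -1.42 on the log2 scale (SE 0.14, 95% CI -1.72 to -1.12). This was past the test in limma (adjusted p = 0.000319) and ranked 31 of all genes tested by p. The exact permutation test, two-sided, over all ways of choosing 5 of 10 samples gave p = 0.00794, the smallest it can give. Between 310 and 582 reads per IPF sample and 963 to 1187 per sham sample lay behind these values.

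Genes that act with WEE1 at the entry into mitosis were read beside it. Of 12 such genes, 11 were tested and 1 passed (9.09%, against 5.85% of all genes). It was Cdc25b, a phosphatase that removes the inhibitory phosphate that WEE1 adds. Cdc25b was 6.14 ± 0.75 FPKM in IPF and 7.75 ± 0.42 in sham lungs (log2 fold change -0.34, limma adjusted p = 0.0432), and it did not pass without sham replicate 1 (adjusted p = 0.0793). The median log2 fold change of the 11 genes was 0.17, against 0.0016 over all genes. Cdk1, the kinase that WEE1 inhibits, had a log2 fold change of 0.27 (adjusted p = 0.553 in limma), and Ccnb1, its cyclin, of 0.42 (0.283). Among 14 proliferation markers 2 passed (14.3%), both DNA replication licensing genes and both lower in IPF lungs: Mcm2 (-0.64, adjusted p = 0.0180) and Mcm5 (-0.66, 0.0140). The summed level of these 14 genes was 65.4 to 90.9 FPKM in IPF and 74.1 to 100.3 FPKM in sham samples, so the groups overlapped.

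Usp2, a deubiquitinase known for acting on clock proteins and on cyclin D1, was the least abundant of the 4 genes. Its level was 1.01, 0.872, 1.35, 1.20 and 1.46 FPKM in IPF replicates 1 to 5, and 3.92, 3.70, 3.52, 3.75 and 3.32 FPKM in sham replicates 1 to 5. The groups did not overlap, and the lowest sham sample was more than 2-fold above the highest IPF sample. The means were 1.18 ± 0.239 and 3.64 ± 0.229 FPKM (SD, n = 5), and differed by -1.57 on the log2 scale (SE 0.13, 95% CI -1.86 to -1.28). The limma adjusted p was 9.84e-05, rank 22 by p, and the exact permutation p, two-sided, was 0.00794. Usp2 also had the fewest reads of the 4, 70 to 124 per IPF sample and 244 to 320 per sham sample.

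Other ubiquitin-specific proteases were read beside Usp2. Of 44 other members of the family, 43 were tested and 1 passed (2.33%, against 5.85% of all genes), and 2 passed without IPF replicate 5. This was Usp54, at 6.14 ± 1.23 FPKM in IPF and 10.5 ± 1.30 in sham lungs (log2 fold change -0.78, limma adjusted p = 0.00591). The median log2 fold change of the 43 was -0.07.

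Nampt makes nicotinamide mononucleotide from nicotinamide and so sets the pace of NAD salvage. It was 16.2, 14.9, 17.4, 17.6 and 24.2 FPKM in IPF replicates 1 to 5, and 21.9, 19.0, 22.2, 21.6 and 21.1 FPKM in sham replicates 1 to 5. In 4 of the 5 IPF samples Nampt was below all sham samples, and in replicate 5 it was above all of them. The means were 18.1 ± 3.58 and 21.2 ± 1.26 FPKM (SD, n = 5). The log2 fold change of -0.25 (SE 0.11, 95% CI -0.49 to 0.00024) did not pass in limma (adjusted p = 0.257), and the exact permutation test, two-sided, gave p = 0.103.

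Without IPF replicate 5, Nampt was 16.5 ± 1.26 FPKM in the IPF group (SD, n = 4). The log2 fold change was then -0.36 (SE 0.0685, 95% CI -0.51 to -0.20) with a limma adjusted p of 0.0107, a level reached by 3.26% of genes in that direction. In the IPF samples left, Nampt was below all sham samples, as already seen above. Leaving out replicate 5 therefore fixes an exact permutation p at its smallest value, so no such test is given. Nampt was the only one of the 4 genes whose call rested on that sample. The summed level of 12 neutrophil markers, a cell type rich in Nampt, was 305.9 FPKM in IPF replicate 5. It was 57.1 to 88.2 FPKM in IPF replicates 1 to 4 and 17.0 to 89.9 FPKM in the sham samples. Between groups 0 of the 12 markers passed the test. Of these markers 11 were higher and 1 lower in IPF, with a median log2 fold change of 0.88, against 0.0016 over all genes. The part of neutrophils in the Nampt level of replicate 5 was not tested.

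Other genes of NAD synthesis were read beside Nampt. Of 14 such genes, 13 were tested and 2 passed in the higher direction, where 3.71% of all genes did: Nmnat2, which makes NAD from the mononucleotide, at 4.02 ± 0.46 against 2.56 ± 0.298 FPKM (log2 fold change 0.63, limma adjusted p = 0.00574), and Nadk2, the mitochondrial NAD kinase, at 6.37 ± 0.5 against 4.76 ± 0.446 FPKM (0.41, adjusted p = 0.0142). The median log2 fold change of the 13 was 0.20. Among 13 NAD-consuming enzymes 0 passed in limma, and Sirt1, a deacetylase that uses NAD and acts on the clock, had a log2 fold change of -0.22 (adjusted p = 0.271). Sirt1 passed once IPF replicate 5 was left out, at -0.30 (adjusted p = 0.0340).

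Cdkn1a was the member that was higher in IPF lungs. It was 22.2, 21.8, 27.8, 23.7 and 32.8 FPKM in IPF replicates 1 to 5, and 18.4, 18.3, 19.1, 16.3 and 15.9 FPKM in sham replicates 1 to 5. The groups did not overlap, with all 5 IPF samples above all sham samples, as for 4.52% of all genes. The means were 25.6 ± 4.64 and 17.6 ± 1.41 FPKM (SD, n = 5), and differed by 0.53 on the log2 scale (SE 0.11, 95% CI 0.28 to 0.77). The difference passed in limma (adjusted p = 0.0180) at rank 658 by p, below the study's fold limit, and the exact permutation p, two-sided, was 0.00794. It was 0.43 when IPF replicate 5 was left out (adjusted p = 0.0121).

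Genes that p53 induces passed the test in both directions. Of 20 genes, p53 itself included, 2 were higher and 2 lower in IPF lungs (3.71% and 2.14% of all genes were), and the median log2 fold change was 0.02. The higher ones were Gadd45a, a stress-induced cell cycle gene (0.52, limma adjusted p = 0.0313, but 0.0682 without sham replicate 1), and Bbc3, which promotes apoptosis (0.46, adjusted p = 0.0203). The lower ones were Sesn2, which restrains mTORC1 (-0.41, adjusted p = 0.00883), and Trp53inp1, a p53 cofactor (-0.73, adjusted p = 0.00991). Trp53, which encodes p53, had a log2 fold change of 0.09 (adjusted p = 0.452) and Mdm2, its ubiquitin ligase, of -0.02 (adjusted p = 0.887). With IPF replicate 5 left out, 5 genes of this list were lower and 2 higher, where 3.26% of all genes were lower and 7.88% passed in all.

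Of 14 other genes of the same machinery (6 cyclin-dependent kinase inhibitors, 3 of the kinases and 5 cyclins), 1 passed (7.14%, against 5.85% of all genes). It was Cdkn2c, the inhibitor p18 of CDK4 and CDK6. Cdkn2c was 13.7 ± 1.03 FPKM in IPF and 8.94 ± 0.91 FPKM in sham lungs, with no overlap (log2 fold change 0.61, limma adjusted p = 0.00207). Cdkn1a and Cdkn2c were thus both higher, and the median log2 fold change of the 14 was 0.0035.

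Glucocorticoids also act on several clock genes, and a list of 14 genes they are known to induce was read beside the 4. In IPF lungs 10 of the 14 were lower and 0 higher at an adjusted p under 0.05 in limma, against 2.14% and 3.71% of all genes, with a median log2 fold change of -0.85. Fkbp5, a co-chaperone of the receptor, fell from 16.2 ± 2.66 to 3.32 ± 3.25 FPKM (log2 fold change -2.60, adjusted p = 0.00373). Ddit4, which restrains mTORC1, fell from 30.6 ± 5.08 to 13.8 ± 1.60 FPKM (-1.14, adjusted p = 0.000432). The summed level of the list was 629.5 FPKM in IPF replicate 5, close to the lowest sham sample at 631.5 FPKM. Per1 and Tsc22d3 are in both this list and the clock lists, so the lists are not separate readings.

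The 4 genes stood in a different order in the groups. In all 5 IPF samples the FPKM levels ran Cdkn1a, Nampt, Wee1 and Usp2 from high to low. In the sham samples Nampt was highest and Usp2 lowest in all 5, with Wee1 above Cdkn1a in 4 and below it in sham replicate 2. The lead of Wee1 over Cdkn1a in sham lungs was within their spread, with means of 18.7 ± 1.62 and 17.6 ± 1.41 FPKM.

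The ratio of Cdkn1a to Wee1 FPKM within a sample was 3.18 to 4.01 in the IPF group (median 3.86) and 0.780 to 1.12 in the sham group (median 0.984). These ranges did not overlap, which follows from the separate differences of Cdkn1a and Wee1, so no test is given. The ratio of Cdkn1a to Nampt was 1.34 to 1.59 in IPF and 0.752 to 0.964 in sham samples. It draws on the separation of Cdkn1a and on the lower Nampt of 4 IPF samples, so it is given without a test too. Wee1 and Usp2, the pair that was lower, stayed closer to each other. Their ratio was 5.22 to 6.61 in IPF and 4.41 to 5.56 in sham samples (exact permutation p = 0.0556), so the ranges overlapped.

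The rest of the clock was read from 36 genes in 5 lists, of which 35 were tested. In limma, 5 were higher and 18 lower in IPF lungs at an adjusted p under 0.05, against 3.71% and 2.14% of all genes, and the median log2 fold change was -0.55. Wee1 and Usp2 moved in the direction of the larger number, and Cdkn1a in that of the smaller.

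**Figure D2:**
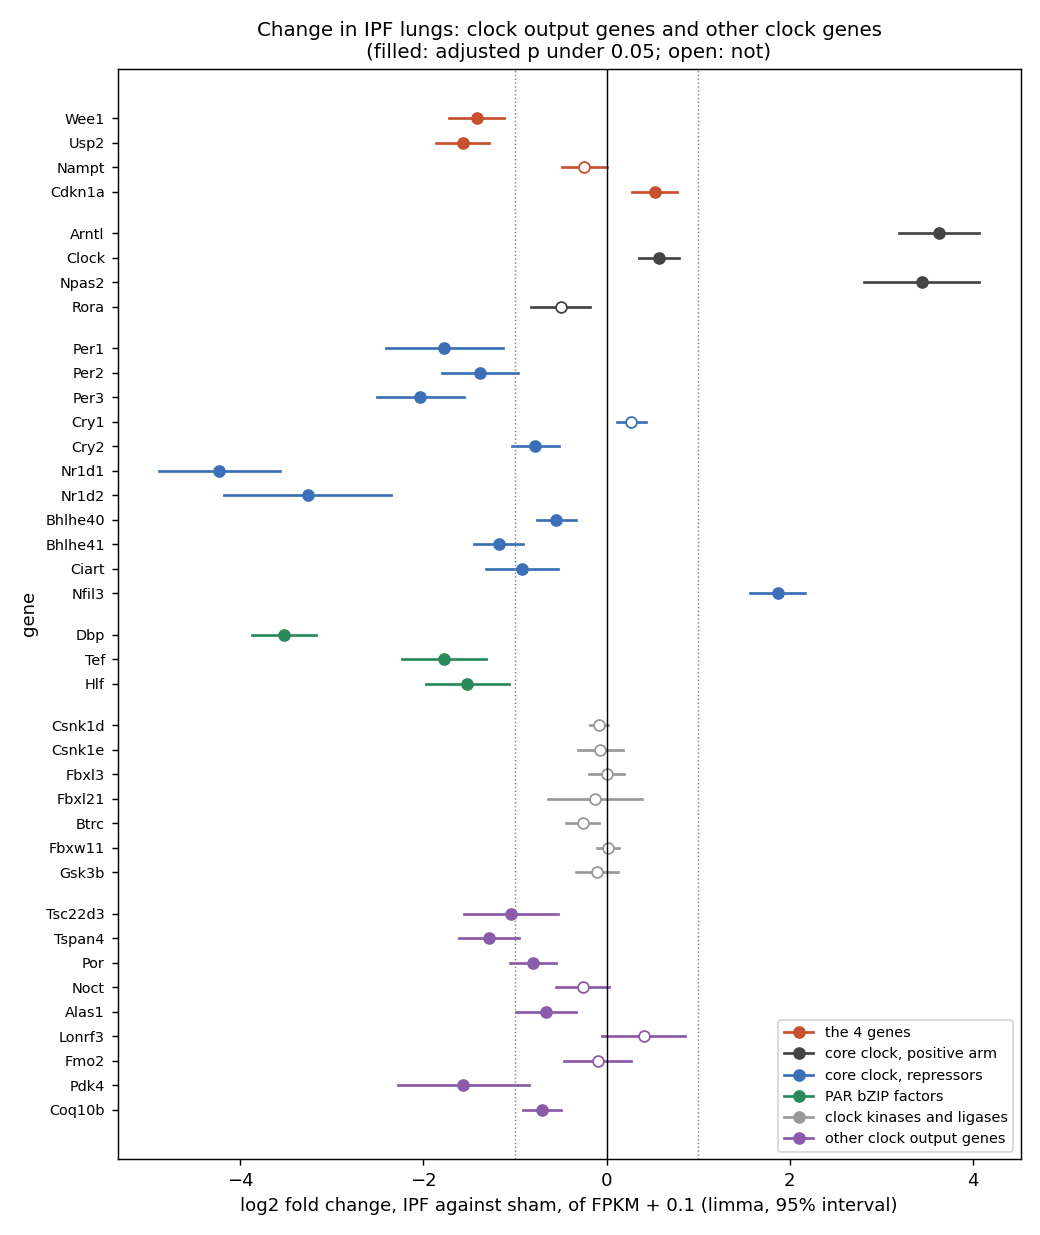
Log2 fold change of IPF against sham with its 95% confidence interval from limma for the 4 output genes and the genes of the clock lists shown here, grouped by role; filled points have an adjusted p under 0.05, and dotted lines stand at -1 and 1. The activators Arntl and Npas2 lie far to the right, the repressors other than Cry1 and Nfil3 and the PAR bZIP factors Dbp, Tef and Hlf to the left, and the kinases and ligases near 0.

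The activators Arntl, Npas2 and Clock were higher in IPF lungs. Arntl (ENSMUSG00000055116) was 6.85, 6.83, 5.61, 6.59 and 3.31 FPKM in IPF replicates 1 to 5, and 0.452, 0.415, 0.315, 0.311 and 0.340 FPKM in sham replicates 1 to 5. On the log2 scale the groups differed by 3.63 (limma, adjusted p = 2.58e-06), and the lowest IPF sample was again replicate 5. Npas2, which can stand in for CLOCK, had a log2 fold change of 3.44 (adjusted p = 9.84e-05) and Clock of 0.57 (0.00684). Rora, an activator of Arntl, did not pass (-0.50, adjusted p = 0.0733), and Rorb was at or below 0.0329 FPKM and was not tested. Rora was lower at -0.62 when IPF replicate 5 was left out (adjusted p = 0.00911).

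Of 11 repressors, 9 were lower and 1 was higher, against 2.14% and 3.71% of all genes, with a median log2 fold change of -1.18. Nr1d1, the repressor of Arntl and of Nfil3, was 2.08 ± 1.31 FPKM in IPF and 36.3 ± 5.08 in sham lungs (log2 fold change -4.23, limma adjusted p = 3.36e-05). Its relative Nr1d2 had a change of -3.26 (adjusted p = 0.00154). The period genes Per1, Per2 and Per3 had changes of -1.77, -1.38 and -2.03 (adjusted p = 0.00574, 0.00235 and 0.000517). The cryptochrome Cry2 was lower (-0.78, adjusted p = 0.00348), while Cry1 did not pass (0.27, adjusted p = 0.0539). Bhlhe40, Bhlhe41 and Ciart, which repress ARNTL targets, were lower, with log2 fold changes of -0.55, -1.18 and -0.92 (limma adjusted p = 0.00825, 0.000435 and 0.0125). The higher one was Nfil3, which binds the same D-box as DBP and represses from it, at 7.88 ± 1.00 FPKM in IPF and 2.11 ± 0.406 in sham lungs (1.87, adjusted p = 4.15e-05).

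The D-box activators all fell. Dbp (ENSMUSG00000059824) was 1.90, 1.98, 2.17, 1.74 and 3.49 FPKM in IPF replicates 1 to 5, and 23.2, 28.8, 29.3, 25.0 and 25.5 FPKM in sham replicates 1 to 5. On the log2 scale the groups differed by -3.53 (limma, adjusted p = 4.99e-07). Dbp overlaps Sphk2 on the other strand, which was 9.09 to 10.5 FPKM in IPF and 7.82 to 8.86 FPKM in sham samples, so part of the reads may belong to either. Tef and Hlf had log2 fold changes of -1.77 and -1.52 (adjusted p = 0.00105 and 0.00214).

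The 7 kinases and ubiquitin ligases that set the stability of PER and CRY proteins did not pass, with a median log2 fold change of -0.08. Their values ran from -0.26 for Btrc (limma adjusted p = 0.0970) to 0.02 for Fbxw11 (adjusted p = 0.900). Csnk1d, the casein kinase that phosphorylates PER, was 42.2 ± 0.865 FPKM in IPF and 44.7 ± 1.63 in sham lungs (-0.08, adjusted p = 0.351).

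Of 9 other genes known to follow the clock, 6 were lower in IPF lungs, against 2.14% of all genes, with a median log2 fold change of -0.70. These were Tspan4, a tetraspanin (-1.28, limma adjusted p = 0.00102), Pdk4, which slows glucose oxidation (-1.56, 0.0173), Tsc22d3 (GILZ), an anti-inflammatory mediator (-1.04, 0.0247), Por, the electron donor of cytochrome P450 enzymes (-0.80, 0.00299), Coq10b, of ubiquinone function (-0.70, 0.00229), and Alas1, the first enzyme of haem synthesis (-0.66, 0.0257). Noct, Lonrf3 and Fmo2 did not pass, at -0.26, 0.41 and -0.10. Without IPF replicate 5, the counts of the repressors, D-box activators and these output genes stayed at 9, 3 and 6 lower.

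The ratio of Dbp to Arntl FPKM was taken as a reading of the clock in each sample. It was 0.278, 0.291, 0.387, 0.264 and 1.06 in IPF replicates 1 to 5, and 51.3, 69.5, 93.0, 80.3 and 75.2 in sham replicates 1 to 5. The groups did not overlap, as the separate differences of Arntl and Dbp require, and IPF replicate 5 was the IPF sample nearest to the sham samples by this ratio. Operation and sex cannot be told apart in this difference, and the part of the hour of collection was not tested.

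IPF replicate 5 stood at the edge of its group for every one of the 4 genes, being the highest IPF sample each time. For Wee1 and Usp2 that placed it nearest to the sham samples, with log2 differences from the sham mean of -0.95 and -1.26, against -1.54 and -1.65 for the mean of the other 4 IPF samples. For Cdkn1a it placed it farthest away, at 0.90 against 0.43. For Nampt it lay on the other side of the sham mean, at 0.19 against -0.36. IPF replicate 2 was the lowest IPF sample for all 4 genes.

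**Figure D3:**
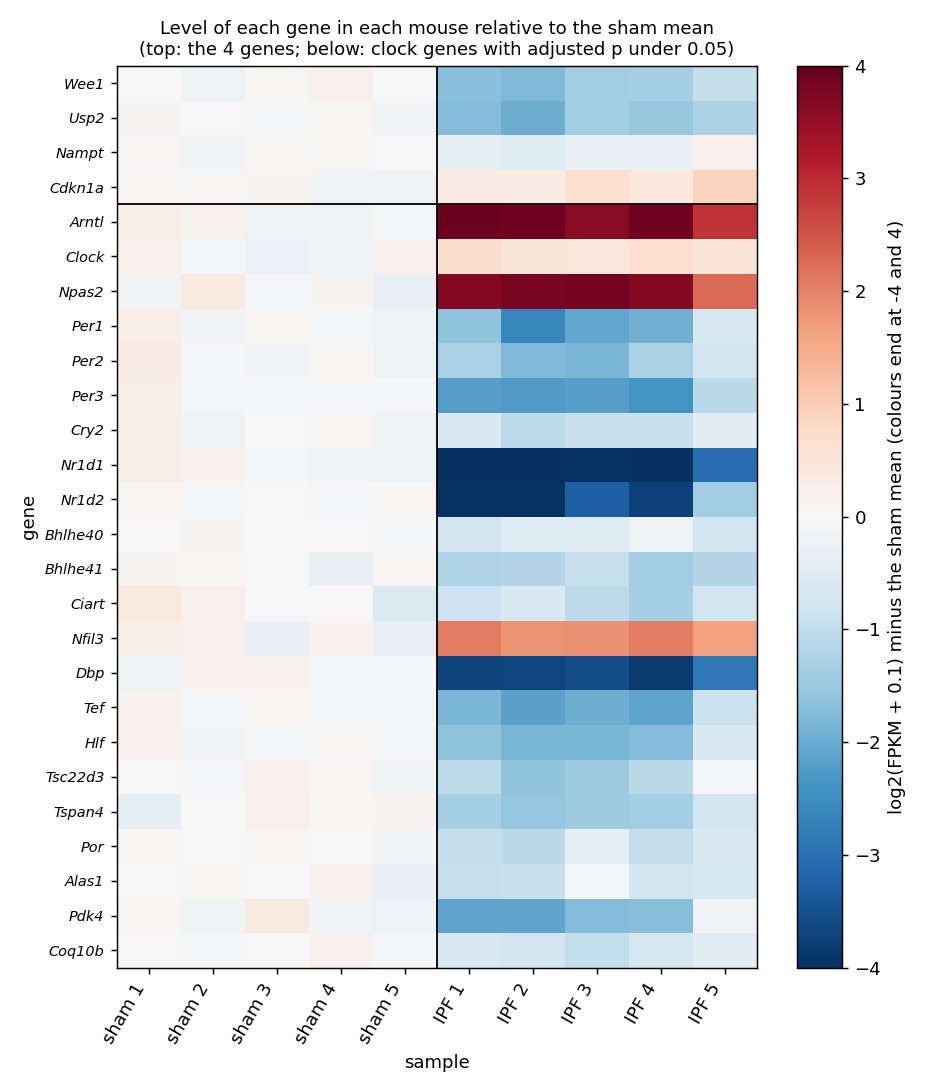
Log2(FPKM + 0.1) minus the sham mean for the 4 output genes and clock genes with an adjusted p under 0.05 (rows) in each of the 10 samples (columns), with colours ending at -4 and 4. The IPF columns share 1 pattern, and the column of IPF replicate 5 is paler for Arntl, Npas2, Dbp, Tef, Hlf and the Per and Nr1d genes than those of replicates 1 to 4.

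The spread within the IPF group was larger than within the sham group for all 4 genes. The coefficient of variation of FPKM was 23.6% in IPF and 8.65% in sham lungs for Wee1, 20.3% and 6.29% for Usp2, 19.8% and 5.97% for Nampt, and 18.1% and 8.03% for Cdkn1a. Without IPF replicate 5 the IPF values were 15.3%, 18.9%, 7.65% and 11.4%. The difference in spread was not tested.

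Whether the 4 genes follow the clock from sample to sample was asked by relating each to Arntl and Dbp. Both reference genes split the 10 samples by group, and each group of 5 is too small for a correlation of its own, so no correlation over the raw values is given. Each sample was instead expressed as its deviation from its own group mean of log2(FPKM + 0.1), and the samples were permuted within groups for an exact test, with p-values adjusted over the 8 relations.

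Within groups, Wee1 ran against Arntl (r = -0.84, exact permutation p = 0.0139, rho = -0.78, p = 0.0119, n = 10), as did Nampt (r = -0.88, exact permutation p = 0.0294, rho = -0.70, p = 0.0456, n = 10). Cdkn1a ran with Dbp (r = 0.82, exact permutation p = 0.0208, rho = 0.64, p = 0.101, n = 10). None of them passed after adjustment by the Benjamini-Hochberg method (adjusted exact permutation p = 0.0785 for each). The adjusted rank tests gave 0.0956, 0.182 and 0.247 for these 3 relations (exact permutation). Cdkn1a against Arntl gave r = -0.72 and rho = -0.58 (exact permutation p = 0.0593 and 0.124, adjusted 0.119 and 0.247).

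The other 4 relations did not pass before or after adjustment. Usp2 had r = -0.60 with Arntl (rho = -0.54, exact permutation p = 0.186 and 0.159) and 0.52 with Dbp (rho = 0.33, exact permutation p = 0.312 and 0.433). With Dbp, Wee1 had r = 0.60 (rho = 0.32, exact permutation p = 0.210 and 0.439) and Nampt r = 0.73 (rho = 0.39, exact permutation p = 0.155 and 0.290). The adjusted p of these 4 values of r was 0.240 to 0.312 (exact permutation), and that of rho 0.254 to 0.439.

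These relations rest on few samples. Without the 2 samples farthest from the median of Arntl (IPF replicate 5 and sham replicate 4), r was -0.47 for Wee1, -0.19 for Usp2, -0.44 for Nampt and -0.36 for Cdkn1a. Without the 2 farthest for Dbp (IPF replicates 4 and 5), it was 0.0121 for Wee1, 0.16 for Usp2, -0.10 for Nampt and 0.54 for Cdkn1a. The smallest exact permutation p of these 8 values was 0.156 (n = 8). Without IPF replicate 5 alone, r with Dbp was -0.27 for Wee1, -0.0046 for Usp2, -0.29 for Nampt and 0.48 for Cdkn1a. Without sham replicate 1, Wee1 with Arntl (r = -0.88), Nampt with Arntl (-0.96) and Cdkn1a with Dbp (0.89) each reached an adjusted exact permutation p of 0.0204. IPF replicate 5 was still included there, and leaving out any other single sample brought no relation under 0.05. Without IPF replicate 5 the adjusted exact permutation p was 0.701 or more for all 8 relations.

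**Figure D4:**
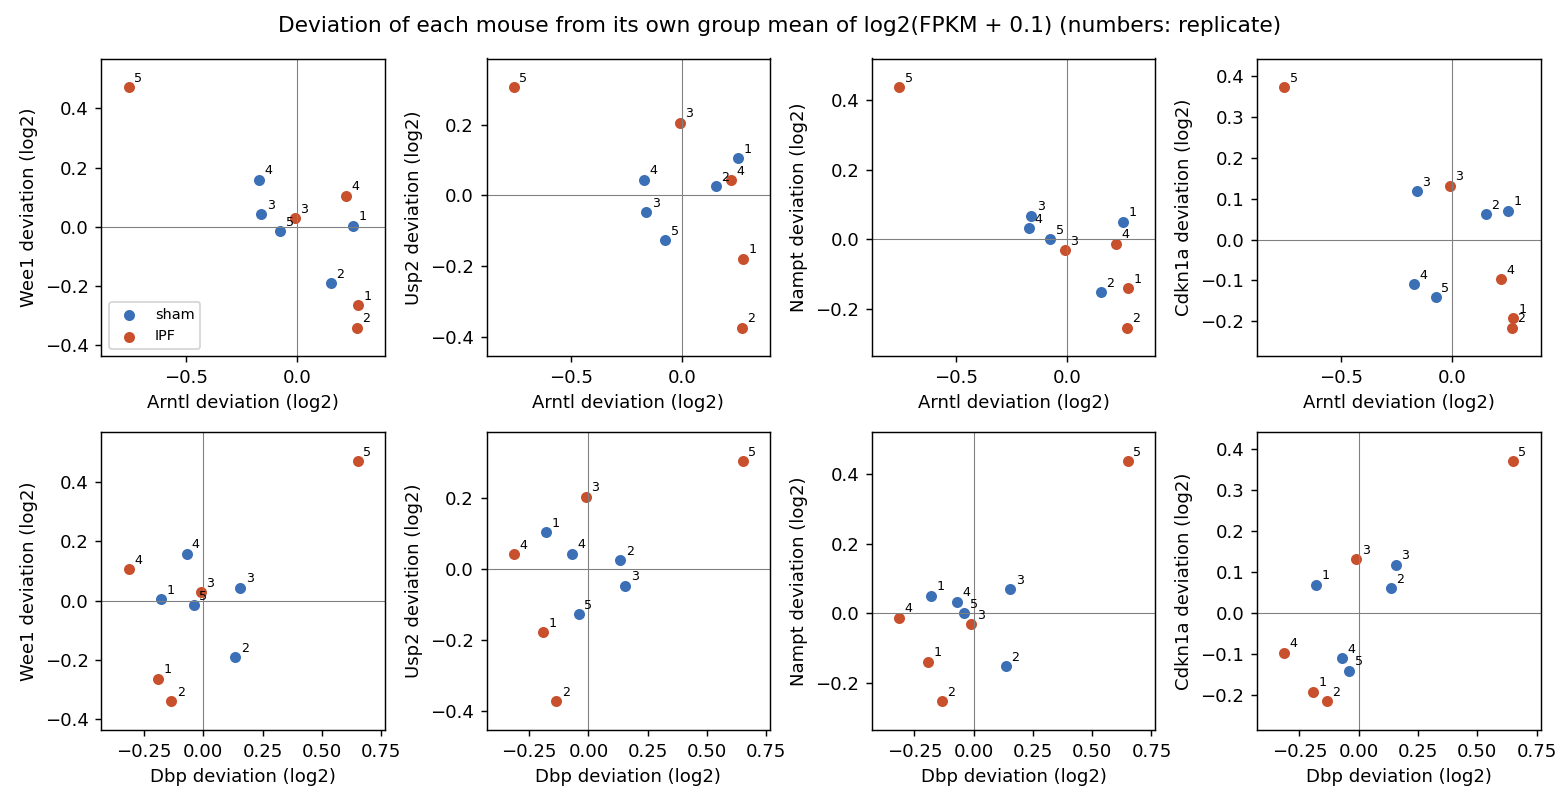
Deviation of each output gene from its own group mean against that of Arntl (top) and Dbp (bottom), on the log2(FPKM + 0.1) scale, for 5 IPF and 5 sham samples. IPF replicate 5 lies far from the other 9 points in every panel, and without it r with Dbp is -0.27 for Wee1, -0.0046 for Usp2, -0.29 for Nampt and 0.48 for Cdkn1a.

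The genes most like each of the 4 were found by the same deviations from the group means over the 10 samples, among 13444 genes with a mean of at least 1 FPKM, as a description. For Wee1 they were Slc35g1 (r = 0.949), Nampt (0.945) and Tspan11 (0.923). Wee1 and Nampt thus varied together within groups, while their group differences were a log2 fold change of -1.42 and -0.25. For Usp2 they were Ccdc102a (0.933), Gm43682 (0.931) and Chrm2 (0.910), none of which passed between groups (log2 fold changes of 0.04, -0.01 and -0.16).

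For Nampt the nearest genes were Otulinl (r = 0.977), Sgsm3 (0.971) and Fam13a (0.955). Otulinl and Sgsm3 were lower in IPF lungs (log2 fold changes of -0.54 and -0.55, limma adjusted p = 0.0140 and 0.00680). For Cdkn1a, those given here are D230025D16Rik (0.983), with a log2 fold change of 0.00 between groups, and Coro2a (0.968), which was lower in IPF lungs (-0.89, limma adjusted p = 0.0211). Coro2a thus varied with Cdkn1a within groups and differed the opposite way between them. IPF replicate 5 was the IPF sample with the highest level of all 4 members, and its part in these likenesses was not tested.

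Markers of other tissues that could be taken with the lung were read beside the 4 genes. Heart muscle (17.4 to 154.6 FPKM in IPF, 27.2 to 142.8 in sham), skeletal muscle (1.16 to 3.12 and 1.18 to 2.35) and adipocyte markers (4.15 to 8.76 and 4.63 to 7.62) overlapped between groups in summed level, and 0 of their tested genes passed in limma. Alveolar and macrophage markers overlapped too, at 345.7 to 542.4 FPKM in IPF and 313.1 to 479.4 FPKM in sham samples, with 0 of 6 passing. The summed level of 6 thymus markers did not overlap, at 4.08 to 5.87 FPKM in IPF and 2.46 to 3.56 FPKM in sham samples (p = 0.00794 by a two-sided exact permutation test). Rag1, Rag2, Dntt and Ptcra were at or near 0, so this sum is mostly Cd4 and Cd8b1, which are also genes of T cells. By flow cytometry the paper found more CD4+ and CD8+ T cells in IPF lungs. The sum cannot tell thymus taken with the lung from T cells of the lung itself. Of the 2 thymus markers that were tested, Cd4 was higher in IPF lungs (log2 fold change 0.48, limma adjusted p = 0.0440), a call lost without sham replicate 1 (adjusted p = 0.0842). The part of these cells in the levels of the 4 genes was not tested.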

How the data were processed

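Whole-lung mRNA of 10 mice was measured, 5 IPF and 5 sham, all at P30. The paper's methods name trimming (Fastp), alignment (HISAT2) and quantification per gene (StringTie). The deposited values are FPKM, and which of these steps gave them was not checked. The methods name GRCm39, but the deposited positions fit GRCm38, with chromosome 1 genes reaching 195323493. The submitters' processing notes also list Bowtie 0.12.2 and the builds hg38, GRCm38 and mm10. DESeq2, named by the authors, was not run here, since the deposited values are FPKM. Recovered reads were tested with limma voom as an alternative.

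On log2(FPKM + 0.1), limma 3.58.1 under R 4.3.3 compared IPF with sham (trended empirical Bayes, without covariates) for genes averaging at least 0.1 FPKM. The fold changes are on that scale, which understates the change of low genes. P-values were adjusted over all 20448 genes by the Benjamini-Hochberg method, and the limits taken from the study are 0.05 for the adjusted p and 1 for the size of the log2 fold change. Whole reads were recovered from FPKM times gene length (100% of values whole within 0.05 reads). Exact permutation tests were two-sided, over samples or, for relations, over the 14400 orders within groups. Python 3.11.15, pandas 2.3.3, numpy 2.4.6, scipy 1.17.1 and matplotlib 3.10.9 were used, and the fit was tested on simulated data.

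The members and the gene lists were chosen with earlier results of these data known. The genes named are the 4 members, Arntl and Dbp, all clock list genes, genes of the members' pathway lists with an adjusted p under 0.05, and the 3 genes most like each member; 1 clock list gene and 1 gene most like Cdkn1a are counted but not reported here. Cdk1, Ccnb1, Trp53, Mdm2, Sirt1, Fkbp5, Ddit4 and the marker genes named are given beside these as context, chosen after their values were seen. Alternatives were other pseudocounts (1, 0.01), other filters (none, mean FPKM of 1), other scalings (median of ratios, quantile), a replicate block, an untrended variance, limma voom on the recovered reads, and each sample left out. List counts without IPF replicate 5 and without sham replicate 1 were chosen after seeing the data.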

Additional observations from a re-analysis of the deposited data

Results flagged for a closer look

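For the 4 output genes and the clock genes, 39 in all, the gap between the most extreme sample of a group and its nearest neighbour was set against Dixon's 95% limit for 5 samples (0.71 of the group's range), which chance passes in about 1 of 20 groups. Of 78 groups tested, 14 passed, none of them a group of Wee1, Usp2, Nampt or Cdkn1a. IPF replicate 5 was the extreme sample in 10 of the 14. All genes were read in the same samples, so the groups are not independent and the count is a description.

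In IPF replicate 5 the level was the lowest of its group for Npas2 (1.29 FPKM). It was the highest for Per3 (6.87), Nr1d2 (17.3), Dbp (3.49), Tef (39.1), Hlf (9.70), Tsc22d3 (155.5), Tspan4 (29.5), Fmo2 (669.8) and Pdk4 (7.37 FPKM). For Npas2, Per3, Nr1d2, Dbp, Tef, Hlf, Tsc22d3, Tspan4 and Pdk4 this placed replicate 5 nearest to the sham group, and for Fmo2 above it. The other 4 were Per3 in sham replicate 1 (17.3 FPKM, the highest), Bhlhe41 in sham replicate 4 (2.06, the lowest), Alas1 in IPF replicate 3 (40.9, the highest) and Coq10b in sham replicate 4 (14.3, the highest).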

How the results depend on the processing

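Wee1, Usp2 and Cdkn1a kept their direction and their side of an adjusted p of 0.05 in limma under all 19 alternatives. The log2 fold change ran from -1.54 to -1.31 for Wee1, from -1.65 to -1.10 for Usp2 and from 0.43 to 0.58 for Cdkn1a, whose adjusted p came closest to the limit with the replicate block (0.0494). Nampt ran from -0.36 to -0.18 when 1 sample was left out and passed only without IPF replicate 5 (-0.36, adjusted p = 0.0107, against 0.150 to 0.459 elsewhere). IPF and sham samples of the same replicate number shared little of their deviations (correlation from -0.02 to 0.0953). Pairs of unlike number were not compared, so this does not settle whether the numbers pair the samples. With the replicate block, 202 genes passed both limits and 1045 an adjusted p under 0.05, against 233 and 1196, and no call of the 4 genes changed.

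Past both limits there were 74 genes with a pseudocount of 1 and 154 at a mean of at least 1 FPKM. Leaving out 1 sample gave 171 (without IPF replicate 4) to 299 (without IPF replicate 5), and 775 (without IPF replicate 4) to 1620 (without IPF replicate 5) genes with an adjusted p under 0.05.

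When 1 sample was left out, r with Dbp ran from -0.27 to 0.76 for Wee1, -0.0046 to 0.62 for Usp2, -0.29 to 0.84 for Nampt and 0.48 to 0.89 for Cdkn1a, the low ends without IPF replicate 5. With Arntl it ran from -0.93 to -0.56 for Wee1, -0.70 to -0.21 for Usp2, -0.96 to -0.46 for Nampt and -0.80 to -0.16 for Cdkn1a, the ends nearest 0 without IPF replicate 5. Without the 2 farthest samples Nampt with Dbp was -0.10. Without sham replicate 1, adjusted exact permutation p fell to 0.0204 for Wee1 with Arntl (-0.88), Nampt with Arntl (-0.96) and Cdkn1a with Dbp (0.89). Leaving out any other single sample brought no relation under 0.05.

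List counts changed as follows: mitotic entry genes 0 with the block or without sham replicate 1, p53 genes 3 to 7 with 1 sample left out (7 without IPF replicate 5), NAD consumers 1 (Sirt1), and ubiquitin-specific proteases 2 without IPF replicate 5 or with median-of-ratios scaling. Thymus markers went from 1 to 0 (Cd4) with the block or without sham replicate 1. Other list counts, where recomputed, stayed within 1.5 times. The block also lost Gadd45a (adjusted p = 0.0657) and Tsc22d3 (0.0506) and gained Rora (-0.50, adjusted p = 0.0401), so that 3 clock activators were higher and 1 lower, against 4 and 0. With a pseudocount of 1 the change of Usp2 (-1.10) was smaller than that of Wee1 (-1.31). The log2 fold change of Arntl, which was low in sham lungs, ran from 2.29 with this pseudocount to 3.93 with limma voom. The causes were not tested.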

Other observations

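Across all 1196 genes with an adjusted p under 0.05 in limma, the IPF sample nearest to the sham mean was replicate 5 in 532 (44.5%). Among the 23 clock list genes that passed, it was replicate 5 in 16 (69.6%). Among the 10 genes induced by glucocorticoids that passed, it was replicate 5 in 7 (70.0%), and the farthest sample was replicate 2 in 7. The clock and glucocorticoid lists share Per1 and Tsc22d3, and the difference between these shares was not tested.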
